A study of Mus musculus with 12 samples.

Results

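The star miRNAs are the entries of the array whose mouse miRNA name ends in an asterisk, the older way of naming the strand of a hairpin that was recovered less often than its partner. Of 115 mouse star entries on the array, 95 are described here, chosen by name alone: miR-22*, miR-378* and miR-199b* and the star entries of the large Dlk1-Dio3 and Sfmbt2 clusters were left aside. They stood among 650 entries in all, 611 of mouse and 39 of mouse herpesviruses. Each was set beside the entry of the same name without the asterisk, called the main arm here, which was on the array for 94 members; miR-125b* had none.

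The study asked whether miRNAs in mouse liver follow the time of day. Adult mice lived on a cycle of 12 h light then 12 h dark, and food and water were never withheld; the labels give no strain, sex or further treatment. Livers were taken every 4 h, and zeitgeber time (ZT, hours from a lights-on) ran from ZT18 to ZT62. At each time, equal amounts of RNA from 2 livers made 1 pool, and each of the 12 pools was measured on its own single-colour array. The light group was the 6 arrays at ZT26, ZT30, ZT34, ZT50, ZT54 and ZT58, and the dark group the 6 arrays at ZT18, ZT22, ZT38, ZT42, ZT46 and ZT62. Each of 6 clock times was sampled on 2 arrays 24 h apart, called the first and the second cycle. The arrays at ZT50, ZT54, ZT58 and ZT62 shared a slide, called slide 2 here, and the other 8 shared slide 1. Pools taken at different times are the replicates, so the p-values measure the spread between pools of 2 livers and not between mice. Where dark is compared with light, that spread also holds differences between clock times, cycles and slides. Of the slide 2 arrays, ZT50, ZT54 and ZT58 were light and ZT62 was dark.

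A miRNA gene is transcribed as a hairpin, which the nucleases Drosha and Dicer cut down to a short duplex of its 5′ arm and its 3′ arm. An Argonaute protein keeps 1 strand as the guide that pairs with messenger RNAs through its seed, bases 2 to 8, and the other, the passenger or star strand, is usually degraded. The strand whose 5′ end is paired less stably, and which begins with U or A, tends to be kept. Some star strands are nevertheless loaded and repress messengers of their own, and the present 5p and 3p names no longer rank the arms. In liver, the let-7, miR-30, miR-29 and miR-26 families are among the better known guides.

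The sequences below are those of miR-30 star strands and of their main arms, since some members differ from each other by very little. Of the 6 star entries detected most often, 3 were of this family: miR-30a*, miR-30e* and miR-30c-2*. No RefSeq entry was matched for miR-30b*, which is therefore not shown. The sequences are RefSeq's (GRCm38.p6), written 5′ to 3′ with the seed in capitals.
miR-30a*: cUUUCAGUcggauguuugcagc
miR-30e*: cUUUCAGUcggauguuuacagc
miR-30c-1*: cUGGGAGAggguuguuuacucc
miR-30c-2*: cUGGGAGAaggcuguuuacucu
miR-30a: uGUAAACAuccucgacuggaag
miR-30e: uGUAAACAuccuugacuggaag
miR-30c: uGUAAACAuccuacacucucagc
Counted from 1 at the 5′ end, miR-30a* and miR-30e* differ by 1 base (G18A), and miR-30a and miR-30e by 1 base (C13U). The star seed UUUCAGU is carried by 2 of the 1679 mature names in the RefSeq set used here, those same star strands. That set held no matched entry for miR-30b, so other strands with this seed may be missing from it. miR-30c-1* and miR-30c-2* differ by 3 bases (G9A, U12C and C22U) and share the seed UGGGAGA, while miR-30a* and miR-30c-2* differ by 10. The main arms miR-30a, miR-30e and miR-30c all carry the seed GUAAACA. The members shown thus have 1 seed on their main arms and another pair of seeds on their star strands. Strands that differ by 1 base can hybridise to each other's probes, so miR-30a* and miR-30e* are not certain to be separate measurements. The genes lie in pairs: Mir30a and Mir30c-2 are 19361 bases apart on chromosome 1, and Mir30e and Mir30c-1 are 2983 bases apart on chromosome 4.

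The hairpins of miR-30a and miR-30e show where the arms sit, with the mature arms in capitals, the main arm first and the star arm after the loop.
Mir30a, chr1:23272269-23272339, plus strand: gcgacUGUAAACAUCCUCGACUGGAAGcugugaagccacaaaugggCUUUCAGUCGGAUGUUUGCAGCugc
Mir30e, chr4:120772606-120772697, minus strand: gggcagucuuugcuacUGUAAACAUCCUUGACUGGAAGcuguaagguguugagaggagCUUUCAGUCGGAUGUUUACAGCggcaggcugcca

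Further star strands that are described by name below are shown in the same way: those of the other entries detected on at least 6 arrays, and some whose detection varied between arrays.
miR-140*: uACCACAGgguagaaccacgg
miR-99b*: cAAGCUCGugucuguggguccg
miR-31*: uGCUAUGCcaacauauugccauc
miR-744*: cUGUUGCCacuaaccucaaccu
let-7b*: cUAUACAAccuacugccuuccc
let-7c-1*: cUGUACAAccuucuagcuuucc
miR-33*: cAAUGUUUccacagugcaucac
miR-101a*: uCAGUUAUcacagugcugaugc
Mir140 lies at chr8:107551244-107551313, Mir31 at chr4:88910557-88910662, Mir744 at chr11:65734733-65734832 and Mir33 at chr15:82198122-82198190. Among the detected star strands, both arms were found in RefSeq for 16, set against 15 different main arms since miR-30c serves a pair of them. In these 16, the star strand began with C in 10 and with U in 3, and the main arm began with U in 10 and with C in 3. The star strand was the 3p arm in 13 and the 5p arm in 3. The count of G and C among the first 4 bases was higher in the star strand for 6, higher in the main arm for 5 and equal for 5, so this simple measure did not separate the arms.

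Few star strands gave a signal in liver. The scanner software called 6 of 95 (6.32%) detected on at least 6 of the 12 arrays, against 129 of 516 other mouse entries (25%) and 4 of 39 herpesvirus entries (10.3%). On at least 1 array it called 21 members (22.1%), 37.4% of the other mouse entries and 9 herpesvirus entries (23.1%). On this count the star strands as a class lay no higher than the herpesvirus entries. Detection over the 95 names is a description of what the array saw in liver and not a test.

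miR-30a*, miR-140* and miR-30e* were detected on all 12 arrays, miR-99b* on 11, miR-30c-2* on 7 and miR-31* on 6. Another 15 were detected on 1 to 5 arrays: miR-744* on 4; let-7b*, miR-30c-1*, miR-33* and miR-17* on 2 each; and let-7c-1*, let-7f*, let-7i*, miR-101a*, miR-130b*, miR-21*, miR-29b*, miR-29c*, miR-30b* and miR-425* on 1 each. The remaining 74 were detected on none. Where the call instead required at least 50% of the spots of the brightest probe to be well above background, 4 members passed on at least 6 arrays and 6 on at least 1. The call is the software's for a whole entry and does not follow the brightest probe closely: let-7i* was called detected at ZT34 with an intensity of -2.05, and miR-130b* at ZT58 with 1.16.

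By family, the miR-30 group was the best represented. All 5 of its star members were detected on at least 1 array, 3 of them on 6 or more. Of the 7 let-7 star strands, partners of a family known for its part in developmental timing, 4 were detected on 1 to 5 arrays and 3 on none. Of 8 members from the miR-17 clusters, known for promoting proliferation, miR-17* was the only member detected at all. The miR-29 family, known to restrain collagen genes, had 2 of 3 star strands detected on 1 array each. None of the 4 miR-23/27/24 star strands, the 4 miR-200 star strands or the 3 miR-15/16 star strands was detected on any array.

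Most star strands went undetected even where the main arm was seen, although they were detected more often there than elsewhere. The main arm was detected on at least 6 arrays for 45 members, and among them the star strand was detected on at least 6 arrays in 5, on 1 to 5 in 11 and on none in 29. The undetected star strands with the brightest main arms were let-7a*, miR-29a*, let-7g*, miR-148a*, miR-16*, miR-26b*, let-7d*, miR-15a*, miR-193* and miR-24-1*, and each of these main arms was detected on all 12 arrays. For the 49 members whose main arm was detected on 5 or fewer arrays, the star strand was detected on at least 6 arrays in 1, on 1 to 5 in 4 and on none in 44. In 4 members the star strand was detected on more arrays than its main arm: miR-99b* on 11 against 4, miR-744* on 4 against 0, miR-17* on 2 against 0 and miR-130b* on 1 against 0. Probes differ in how strongly they bind, so no level of one arm was set against that of the other.

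Marker miRNAs put these signals in whole liver RNA. All 5 hepatocyte markers were detected on all 12 arrays, as were 4 of 6 leukocyte, 2 of 3 red cell, 2 of 2 endothelial and 3 of 5 mesenchymal markers, while miR-155, miR-150 and miR-145 were detected on none. In such RNA, fewer cells of a type and less RNA per cell cannot be told apart. Arrays correlated with each other over the tested entries at r of 0.987 or more. Depth has no count here: the number of arrays and the 8 to 10 spots per probe (4 or 5 for miR-99b*) limit the precision.

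**Figure D1:**
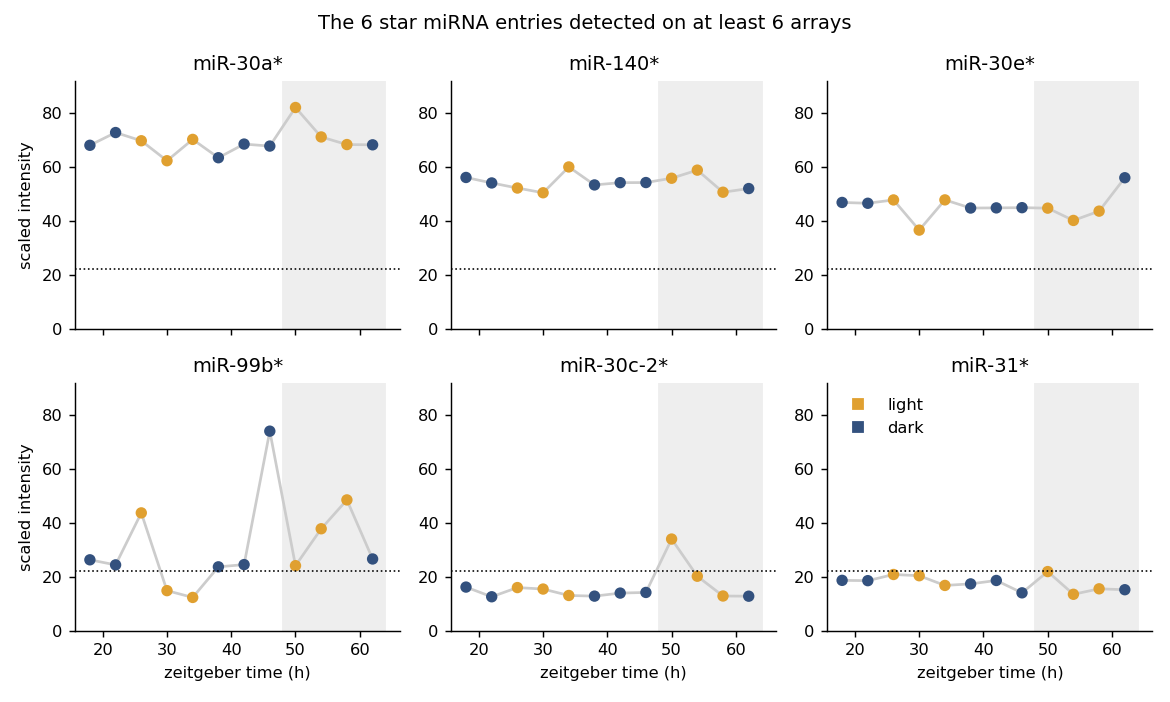
Scaled intensity (vertical axis, linear) of the 6 star entries detected on at least 6 arrays against zeitgeber time in hours, 1 point per array, orange for light and blue for dark; the dotted line is the floor of 22.2 and the grey band marks the arrays of slide 2. miR-30a*, miR-140* and miR-30e* lay above the floor on every array, miR-99b* moved between 12.4 and 74.2, and miR-30c-2* passed the floor only at ZT50.

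Intensities are given after scaling each array to the 75th percentile of 157 probes detected everywhere. miR-30a*, the 3p partner of an abundant liver guide, read 68.1, 72.9, 63.5, 68.6, 67.8 and 68.3 on the dark arrays in time order. On the light arrays miR-30a* read 69.8, 62.4, 70.3, 82.2, 71.2 and 68.4. The groups overlapped, and both the lowest value (ZT30) and the highest (ZT50) were light. Mean intensities of miR-30a* were 70.7 ± 6.44 for light and 68.2 ± 2.97 for dark arrays (SD, n = 6 per group). The spots of its probe on the ZT50 array ran from 60.0 to 116, and its other probe, which ranged from 37.0 to 45.8, was highest at ZT42 instead.

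miR-140* is the 3p strand of a hairpin within an intron of Wwp2, known for its part in cartilage. It gave 56.2, 54.1, 53.4, 54.2, 54.3 and 52.1 in the dark. In the light miR-140* gave 52.3, 50.5, 60.1, 55.9, 58.9 and 50.7. The dark values of miR-140* lay inside the range of the light ones, with means of 54.1 ± 1.34 in the dark and 54.7 ± 4.19 in the light (SD, n = 6 each). The second probe of miR-140* ranged from 12.2 to 19.5. It was lowest at ZT30, as was the brighter probe, but highest at ZT58, where the brighter probe read 50.7. More than 50% of the spots of the second probe were well above background on 0 arrays.

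miR-30e*, 1 base from miR-30a*, comes from a hairpin within Nfyc, a gene for a subunit of the transcription factor NF-Y. It gave 46.9, 46.6, 44.8, 44.9, 45.0 and 56.1 in the dark. In the light miR-30e* gave 47.8, 36.6, 47.9, 44.8, 40.2 and 43.7. The dark array at ZT62 was highest and the light array at ZT30 lowest. The light arrays at ZT26 and ZT34 lay above 5 of the 6 dark ones, and the other 4 lay below the lowest dark value. Mean intensities of miR-30e* were 47.4 ± 4.36 in the dark and 43.5 ± 4.42 in the light (SD, n = 6 each). The standard error from its spots had a median of 2.39 units over the arrays, against 4.65 for the SD between arrays. On the ZT62 array its spots ran from 37.8 to 89.0. The second probe of miR-30e* ranged from 12.6 to 18.9, below the floor of 22.2 throughout. Most of its spots were well above background on 0 arrays. It was lowest at ZT30, as was the brighter probe, but highest at ZT54, where the brighter probe read 40.2. The high value at ZT62 thus rests on the brighter probe, and the second is too dim to decide whether ZT62 was highest.

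miR-99b* comes from a cluster with let-7e and miR-125a, and miR-99b itself lay at the floor on all 12 arrays. The dark arrays gave 26.4, 24.5, 23.8, 24.6, 74.2 and 26.7 for miR-99b*. On the light arrays miR-99b* gave 43.8, 14.9, 12.4, 24.2, 37.9 and 48.6. ZT46 stood far above the other dark arrays, which lay within 23.8 to 26.7, and the light arrays spread from below the floor to 48.6. At ZT46 all 5 spots of this probe of miR-99b* were well above background, from 63.0 to 85.5. Of its 4 probes, 3 were highest at ZT46 and the other at ZT58. At ZT54 the 5 spots ran from 4.58 to 75.7, so values of miR-99b* from other arrays are less sure.

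miR-30c-2* and miR-31* were called detected but were dim. miR-30c-2* lay between 12.6 and 20.3 on 11 arrays and at 34.1 on the ZT50 array. On that array only 3 spots of the 10 passed the software's background test, the spots ran from 4.65 to 108, and their median was 17.3, below the floor. miR-31*, whose main arm was detected on all arrays, averaged 17.7 ± 2.71 (SD, n = 12) and lay below the floor of 22.2 on all 12 arrays. The tests below carry no information on miR-31*, and for miR-30c-2* they rest on 1 array.

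No star strand changed with the time of day past the threshold. Over the 139 entries detected on at least 6 arrays, 0 passed limma's test of a 24-h cosine, of dark against light, of the 6 clock times or of the second against the first cycle at an adjusted p of 0.05 (percent called 0 in each). At an unadjusted p under 0.05 the shares of all entries were 3.6%, 7.91%, 4.32% and 3.6%, and 0 of the 6 star strands were among them in any test. The median peak-to-trough fold was 1.13 over the 6 star strands and 1.08 over the 139 entries. The median dark-minus-light difference (log2) was -0.03 over the 6 and -0.02 over the 139. The dark mean was the lower in 92 of the 139 entries (66.2%) and in 4 of the 6 star strands, with miR-30e* higher and miR-31* at the floor. That share turned on the scaling: it was 34.5% without scaling, 49.6% with quantile normalization, 3.6% with scaling on all probes and 83.5% with normexp background correction, so a direction shared by many entries cannot be read from these arrays.

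What sizes the data leave room for differed between members. For miR-140* the fitted 24-h peak-to-trough fold was 1.01 with an upper 95% limit of 1.16, and dark minus light was -0.01 (log2, 95% interval -0.12 to 0.09). For miR-30a* the fold was 1.10 with an upper limit of 1.28, and dark minus light was -0.05 (-0.18 to 0.08), or 0.0037 without the ZT50 array. The sign of the small differences of miR-140* and miR-30a* also turned without scaling. For miR-30e* the fold was 1.17 with an upper limit of 1.44, and dark minus light was 0.12 (-0.05 to 0.30, limma adjusted p = 0.740). All 6 dark arrays of miR-30e* lay above its light mean. On slide 1 alone the difference of miR-30e* was 0.01, without the ZT62 array it was 0.07 and without the ZT30 array 0.08. For miR-99b* the fitted fold was 1.36 and dark minus light was -0.06 (-0.77 to 0.65); no limit is given for its fold because 2 arrays lay at the floor.

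By clock time, miR-30e* was lowest 6 h after lights on (38.4 ± 2.54, SD, n = 2 arrays) and highest at 14 h, 2 h into the dark (50.5 ± 7.96). The span of 1.31-fold on the log2 means did not pass the F test over 6 clock times (limma adjusted p = 0.805). miR-30a* was highest at 2 h (76.0 ± 8.74) and lowest at 14 h (65.9 ± 3.39), a span of 1.15-fold with an adjusted p of 0.809 by limma. miR-140* spanned 1.05-fold. Between cycles 24 h apart, miR-30a* differed by 0.07 (second minus first, log2), miR-140* by -0.00153 and miR-30e* by 0.02. For miR-99b* the difference was 0.45 with an interval from -0.37 to 1.28.

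**Figure D2:**
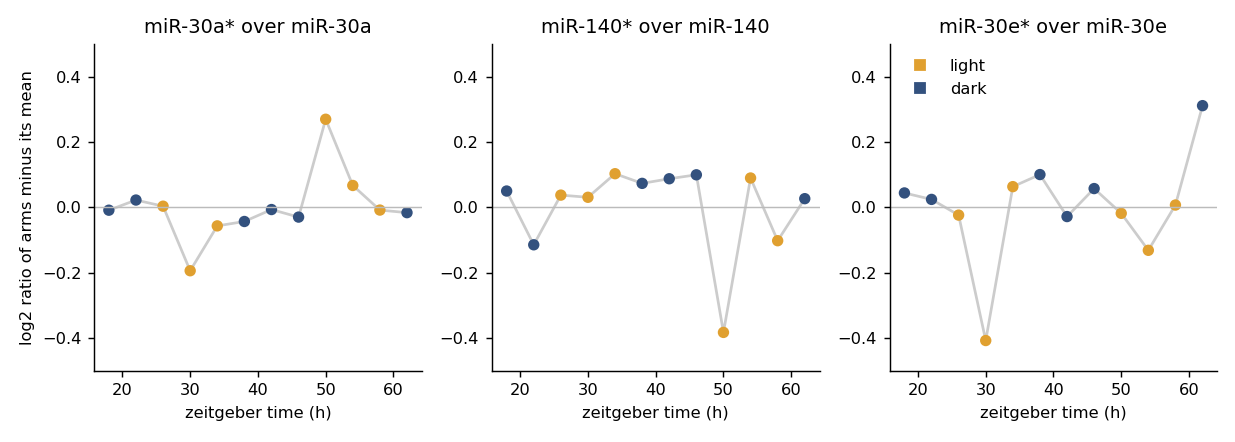
Log2 ratio of star strand to main arm on each array minus its mean over the 12 arrays (vertical axis) against zeitgeber time in hours, for miR-30a*, miR-140* and miR-30e*; orange points are light arrays and blue points dark arrays. For miR-30e* the ratio was lowest at ZT30 and highest at ZT62, for miR-30a* it was highest at ZT50, and for miR-140* it was lowest at ZT50.

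Whether the choice of arm shifted over the day was read from the ratio of both arms on each array. This cancels the array's scaling where neither arm lies at the floor. Of 10 arm pairs with both arms tested, 5 held a star strand described here. None of the 10 (0) passed limma's test at an adjusted p of 0.05 for a 24-h cosine or for dark against light, and 1 of 10 (10%) had an unadjusted p under 0.05 in each. That pair was miR-30e* with miR-30e.

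The log2 ratio of miR-30e* to miR-30e was -2.98 ± 0.17 over the light arrays and -2.81 ± 0.12 over the dark ones (SD, n = 6 per group). Dark minus light was 0.17 (95% interval 0.02 to 0.32), a 1.13-fold difference, with an unadjusted p of 0.0314 and an adjusted p of 0.304 by limma. All 6 dark arrays lay above the light mean, although the light arrays at ZT26, ZT34, ZT50 and ZT58 lay among the dark ones. The 24-h fold of this ratio was 1.22 with an upper limit of 1.49 and an adjusted p of 0.343. Its peak fell 16.3 h after lights on. Without the ZT30 array the dark-minus-light difference was 0.11, on slide 1 alone it was 0.16, and miR-30e itself differed by -0.05 (-0.12 to 0.03).

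The other ratios showed smaller differences against their spread. For miR-30a* over miR-30a, dark minus light was -0.03 (-0.17 to 0.12), and the SD of the dark arrays was 0.02. For miR-140* over miR-140 it was 0.07 (-0.08 to 0.23). The ratio of miR-140* was -0.13 at ZT50 and between 0.14 and 0.36 on the other 11 arrays; the main arm miR-140 was highest on that array, at 61.0, where miR-140* read 55.9. With miR-31* at the floor throughout, its ratio (dark minus light 0.11) moved only with miR-31. The ratio of miR-30c-2* (dark minus light -0.10, -0.27 to 0.07) likewise follows miR-30c on 11 arrays.

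Star strand and main arm were also compared across the 12 arrays, in 8 pairs. For miR-140*, Pearson's r was 0.407 and Spearman's rho 0.510 (permutation test, two-sided, p = 0.197 and 0.0934, adjusted over the 8 pairs 0.526 and 0.249). Without the arrays at ZT50 and ZT22, farthest from the median of miR-140, r was 0.706, and over the 8 arrays of slide 1 it was 0.624. For miR-30a* r was 0.0701 and rho 0.0629 (permutation p = 0.823 and 0.850), with r of 0.466 on slide 1. Without the pair of arrays farthest from the median r of miR-30a* was -0.377. For miR-30e* r was -0.0914 and rho 0.238 (permutation p = 0.787 and 0.457), with r of -0.268 on slide 1 and -0.278 without the farthest pair. For miR-30c-2* r was -0.101 with 11 arrays at the floor, so it rests on 1 array. No pair with a star strand described here (0 of 4) passed after adjustment. Among the other pairs, miR-142-3p with miR-142-5p passed, with r of 0.832 and rho of 0.916 (permutation test, adjusted p = 0.00088 and 0.0012). miR-199a-3p with miR-199a-5p passed by r of 0.765 (permutation test, adjusted p = 0.0203) but not by rho (0.0511). The pairs of miR-126 and of miR-22 did not pass.

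**Figure D3:**
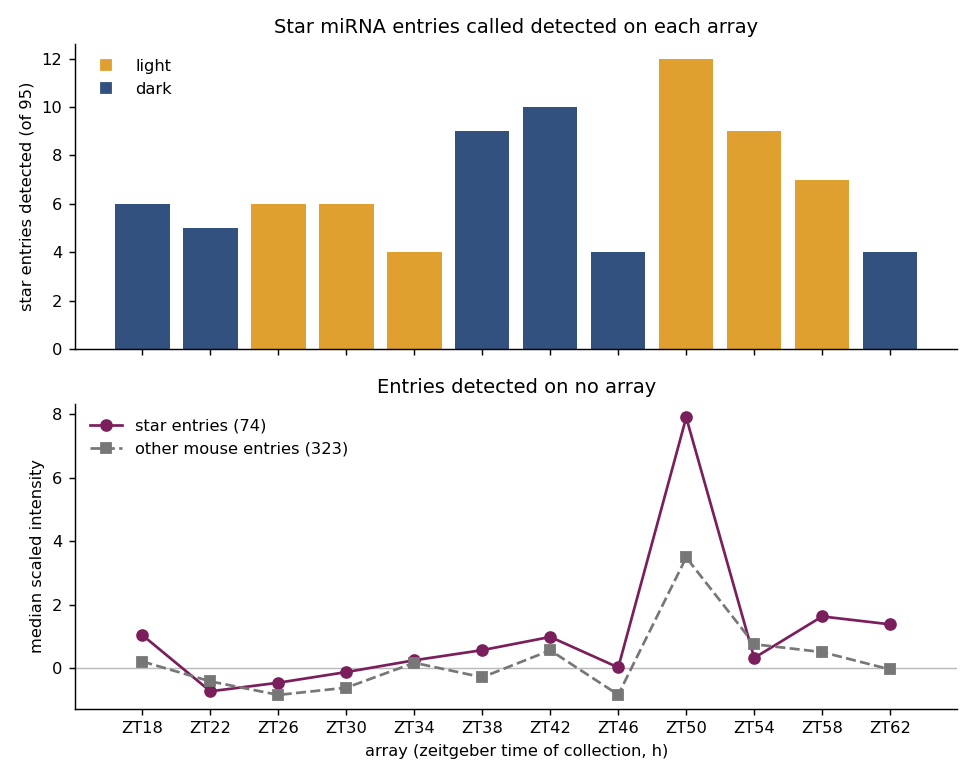
Upper panel, number of the 95 star entries called detected on each array, as bars from 0 in orange for light and blue for dark; lower panel, median scaled intensity on each array of the 74 star entries, and of the other mouse entries, detected on no array. The ZT50 array had 12 star entries detected, against 4 to 10 on the other arrays. Other mouse entries detected, not drawn, numbered 128 at ZT50 and 123 to 147 elsewhere. The ZT50 median over undetected star entries was 7.91 against -0.73 to 1.63 elsewhere. Over undetected other mouse entries it was 3.49 against -0.84 to 0.75.

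Many dim star strands had their highest mean over spots on 1 array, ZT50, taken 2 h after lights on in the second cycle. The software called 12 of the 95 members detected there, against 4 to 10 on the other arrays. Of the 516 other mouse entries it called 128 detected at ZT50, within the 123 to 147 of the other arrays. Of the 95 members, 50 (52.6%) had their highest value on that array, against 33.7% of the 516 other mouse entries and 23.1% of the 39 herpesvirus entries. Among entries detected on no array the shares were 54.1% of the 74 star entries and 39.0% of the other mouse entries, and 6 of 30 for the herpesvirus entries. The median intensity of the 74 was 7.91 on that array and between -0.73 and 1.63 on the others. Members above the floor numbered 16 there and 3 to 7 elsewhere. Herpesvirus entries above it numbered 5 at ZT50 and 3 to 4 elsewhere, and the other mouse entries above it were not counted. The other arrays of slide 2, ZT54, ZT58 and ZT62, were the highest for 13, 5 and 9 members, and the slide 1 arrays for 0 to 6 each. The other array of the same clock time, ZT26, was the highest for 0 members. It differs from ZT50 in both cycle and slide, so clock time, cycle and slide cannot be told apart here.

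**Figure D4:**
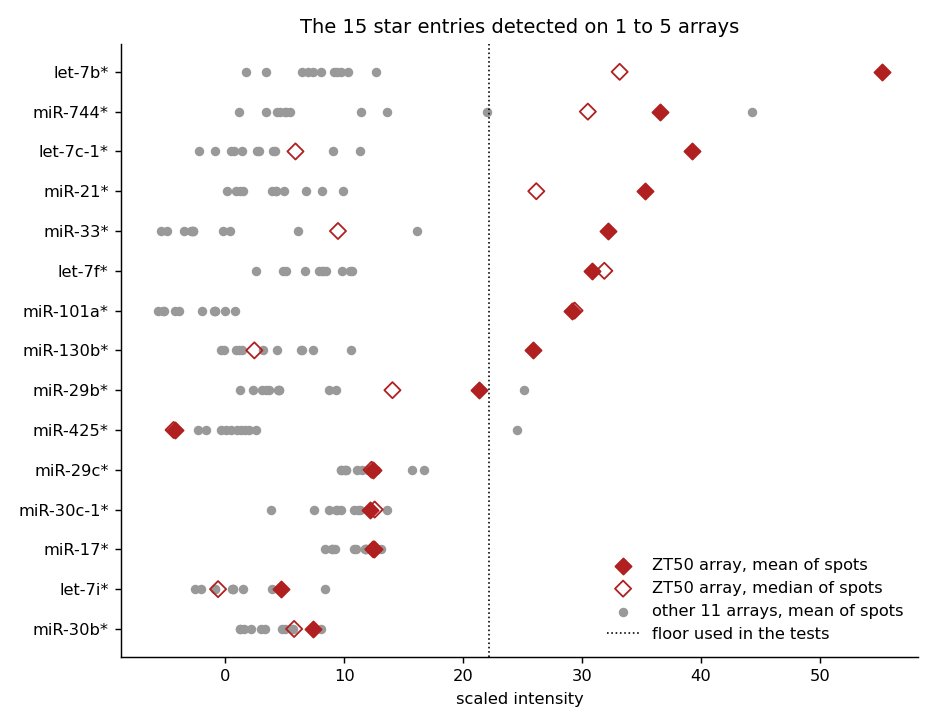
Scaled intensity (horizontal axis, linear) of the 15 star entries detected on 1 to 5 arrays, 1 point per array; filled red diamonds are the mean of the spots on the ZT50 array, open red diamonds the median of the same spots, grey points the mean of the spots on the other 11 arrays and the dotted line is the floor of 22.2. For let-7b*, let-7c-1*, miR-21*, miR-33*, let-7f*, miR-101a* and miR-130b* the ZT50 array was the only array above the floor by the mean of the spots. By the median of the spots let-7c-1*, miR-33* and miR-130b* lay below the floor there.

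let-7b* read 55.2 at ZT50 and between 1.74 and 12.7 on the other arrays. The median of its spots at ZT50 was 33.2, lower than their mean but still above the floor. let-7f* read 30.9 there, with a median of 8.18 over all arrays, and the median of its spots at ZT50 was 31.9. let-7c-1* read 39.3 at ZT50 and at most 11.3 elsewhere, but the median of its spots was 5.90 there, below the 6.68 at ZT34. miR-33*, from the hairpin within Srebf2 whose main arm restrains cholesterol export, read 32.2 at ZT50, 16.1 at ZT54 and at most 6.13 elsewhere. The median of the spots of miR-33* at ZT50 was 9.47, its highest over the arrays and below the floor. Of these 4 star strands, let-7b* and let-7f* thus stood above the floor at ZT50 by either summary of the spots, and let-7c-1* and miR-33* by the mean alone.

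miR-21*, partner of a miRNA known to rise in proliferating cells, read 35.3 at ZT50 and at most 9.85 on the other arrays, and the median of its spots at ZT50 was 26.2. miR-101a*, the 5p strand of a hairpin known for restraining growth, read 29.1 there and at most 0.79 elsewhere, and the median of its spots at ZT50 was 29.4. Both thus stood above the floor at ZT50 by either summary. miR-744* read 44.3 at ZT54 and 36.6 at ZT50 by the mean of the spots, but 2.87 and 30.5 by their median, so its highest array depended on the summary.

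Other dim members gave no such reading. miR-130b* read 25.9 at ZT50 and at most 10.6 elsewhere, but it was not called detected there, and the median of its spots was 2.44 at ZT50 against 9.26 at ZT42. miR-29b* was highest at ZT54, with 25.1 by the mean of the spots and 26.4 by their median, against 21.3 and 14.1 at ZT50. miR-425* read 24.6 at ZT54 by the mean of the spots and 6.37 by their median, and -4.21 at ZT50. miR-30c-1*, miR-17*, miR-29c*, let-7i* and miR-30b* stayed at or below 16.7 on every array, and their ZT50 values lay within the range of the other arrays.

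Several measurements moved with the ZT50 array. The shares rest on the mean of the spots: with the median of the spots, 36 members (37.9%) were highest there, against 6 of 39 herpesvirus entries. The median of the 74 was then 1.92, and 10 members stood above the floor. The herpesvirus entry mghv-miR-M1-7-5p read 36.5 on that array. The array lay on slide 2, whose 4 arrays had 6.12% to 6.94% outlier spots (6.13% at ZT50), against 3.82% to 5.49% on slide 1. The median of the negative control spots at ZT50 was 2.16, within the 1.15 to 2.80 of all arrays. The part of the slide in the pattern was not tested. Summed red cell markers (2816) and summed leukocyte markers (583) were highest on that array, while summed hepatocyte markers (36988) lay within their range of 35299 to 39046. Their part in the result was not tested. With quantile normalization 21 members were highest on the ZT50 array and with scaling on all probes 17. The other mouse entries were not counted in these settings or with the median of the spots. Whether star entries exceed them there is thus not known.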

How the data were processed

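Files were 12 single-colour (Cy3) Agilent miRNA arrays of liver RNA. The deposited values are spot intensities on a linear scale, background-subtracted and detrended by Feature Extraction, version 10.7.3.1 per the file headers and 9.5.3.1 per the submitters' processing notes. The series value table held the same intensities (largest difference 0). Flags for detection and spots above background are the software's, per the file headers. The genome build is not given in the sources used here.

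Control and outlier spots (3.82% to 6.94% of an array) were left out; 0 spots were saturated. Spots of each probe were averaged, arrays scaled to the 75th percentile of 157 probes detected on all arrays (factors 0.865 to 1.10), a floor of 22.2 (log2 4.47) was set and log2 taken. An entry was represented by its brightest probe. limma 3.58.1 in R 4.3.3 with data.table (version 1.17.8) tested the 139 entries detected on at least 6 arrays, with Benjamini-Hochberg adjustment at 0.05, and the 10 arm ratios separately. Correlations used permutation tests (100000 draws; exact on slide 1). The scripts were tested on simulated data.

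Every member detected on at least 6 arrays is given with values and its main arm, members on 1 to 5 arrays with their number of arrays, and at most 10 of the others, those with the brightest main arms. Members and lists were chosen with earlier results of these data known. Alternatives were scaling, background correction, floor, filter, probe summary, slide, detection call and leaving out each array; the median of the spots, a variance trend for the ratios, the count at ZT50 and detection without that array were added after seeing the data. normexp used the median spot signal with an offset of 50, as the mean spot signal was not among the columns used here. Of 21 detected members, 17 matched a RefSeq mature sequence; the arm of a retired star name was assigned from general naming knowledge.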

Additional observations from a re-analysis of the deposited data

Results flagged for a closer look

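Within a group of 6 arrays, a lone value was checked by its gap to its nearest neighbour as a share of the range (Dixon's criterion), in 19 groups. Chance gives about 1 such value in 20 independent groups of measured values; 5 groups were past it here, but 2 of them are the level and the ratio of miR-30c-2* on the same array, with its other light arrays at the floor, so the count cannot be set against chance. On the log2 scale, miR-30e* stood apart in the dark at ZT62 (5.81), miR-99b* in the dark at ZT46 (6.21) and miR-30c-2* in the light at ZT50 (5.09). The log2 ratio of miR-140* to its main arm stood apart in the dark at ZT22 (0.14), and that of miR-30c-2* in the light at ZT50 (-4.55). The causes were not tested.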

How the results depend on the processing

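Counts of entries past the threshold were 0 in the main setting for all 6 tests of rhythm, light, time, cycle and arm ratio, and 153 recomputed values of these and the other counts stayed at 0 or within 1.5 times; the exceptions follow. normexp gave 1 entry for the 24-h rhythm, 1 for the time of day and 2 arm correlations (miR-140* and miR-31*). On slide 1 alone, 1 entry passed the time-of-day test, miR-31* (1.14-fold); there the floor, set anew, was lower, miR-31* lay above it on 2 arrays, and 4 of the 6 clock times had 1 array, assumed to vary like the others, so this call supports no change. Leaving out each array in turn gave 0 to 1 entries for the 24-h rhythm, 0 to 2 for dark against light and 0 to 8 for the time of day. The 8 came without ZT26, where miR-30c-2* at 2 h rests on ZT50 alone (1.38-fold).

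The number of star strands detected on at least 1 array was 21, 6 with the spot rule and 0 above the highest herpesvirus entry (0 also on at least 6 arrays), a comparison between probes set by 1 bright entry, mcmv-miR-M23-1-5p (112 to 174), and 17 without the ZT50 array. Members highest at ZT50 numbered 0 with normexp, 17 with scaling on all probes and 21 with quantile normalization. normexp behaved unlike the other settings on the ZT58 array, where the member median was 512 against 56.4 to 76.6 elsewhere; the cause was not tested.

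Reversals of direction (57) were all of single members that had not passed a test. The median of all entries moved, with scaling on all probes, by 0.38 (dark minus light) and -0.50 (cycle), and normexp by -0.36 and 0.36. With scaling on all probes, dark minus light was 0.41 for miR-140*, 0.38 for miR-30a* and 0.20 for miR-99b*, the cycle difference -0.47 for miR-30a* and -0.47 for miR-30e*, and the ratio of miR-31* -0.40. Relative to the shifted median, miR-140*, miR-30a* and miR-99b* differed by 0.04, 0.00396 and -0.18. Without scaling, dark minus light was 0.046 for miR-140* and 0.012 for miR-30a*, the cycle difference of miR-30e* -0.026 and its arm correlation 0.358; rho of miR-140* with its main arm was then 0.790 (permutation test, adjusted p = 0.00931). With quantile normalization, dark minus light was 0.029 for miR-99b*, the cycle difference of miR-30e* -0.048 and the ratio of miR-30a* 0.033. With normexp, dark minus light was -0.37 for miR-30e*, the cycle difference 0.41 for miR-140*, the ratios -0.23 for miR-30e* and -0.043 for miR-31*, and the correlations -0.874 for miR-30a* and 0.953 for miR-30e*.

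For miR-99b*, dark minus light was 0.17 with a lower floor, 0.076 with a pseudocount and 0.27 on slide 1. With the mean over all probes, dark minus light was 0.000637 for miR-30a* and 0.000201 for miR-99b*, the cycle difference of miR-140* 0.013, and the ratios 0.023 for miR-30a* and 0.00317 for miR-30c-2*. With slide as a block, the cycle difference was -0.047 for miR-30a* and -0.058 for miR-30e*, and the ratio of miR-30a* 0.013. On slide 1, the cycle difference was -0.086 for miR-30a* and -0.096 for miR-30e*, and the ratios -0.018 for miR-140*, 0.069 for miR-30a* and 0.057 for miR-30c-2*. With the median of the spots, dark minus light was 0.00157 for miR-140*, the cycle difference of miR-30e* -0.024, the ratio of miR-30a* 0.000656 and the correlation of miR-30e* 0.212.

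Leaving out each array in turn, dark minus light ranged from -0.037 to 0.013 for miR-140*, from -0.084 to 0.00367 for miR-30a* and from -0.27 to 0.13 for miR-99b*. The cycle difference ranged from -0.048 to 0.047 for miR-140* and from -0.047 to 0.050 for miR-30e*, and the ratio from -0.069 to 0.024 for miR-30a* and from -0.16 to 0.00187 for miR-30c-2*. Light arrays could not be paired with dark ones, because their replicate numbers were given in order of collection only and name no shared animal or batch. Only the comparison of cycles set arrays of the same clock time against each other. Signal at or near background limits what can be said of all members but miR-30a*, miR-140* and miR-30e*.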
